A study of Homo sapiens with 8 samples.

Results

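The nucleotide supply enzymes described here are 9 genes, RRM1, RRM2, TYMS, TK1, DTYMK, DUT, DCK, CAD, and UMPS, which encode ribonucleotide reductase and enzymes that synthesize or salvage thymidylate and pyrimidines. They were taken by name, as the genes of the count table whose Ensembl identifiers map to these symbols, and the rule uses no measured value, although the list was drawn up with earlier results of these data known. All 9 were found among 60230 genes, and all 9 were among the 13404 genes that passed the filter on low counts. RNA was sequenced from 8 samples of HepG2, a human hepatocellular carcinoma line, in a version that overexpresses CYP3A4 and is kept under blasticidin. Cells were exposed for 24 h to compound 4, 5, or 6 or to the solvent alone (0.2% DMSO), with 2 samples per group, and every group carried the CYP3A4 overexpression. The labels call the treatments metylcresol (compound 4), tetrabut (compound 5), and cyclohexil (compound 6). Each compound was given at its own IC50, so that concentrations differed between compounds, and compound and concentration cannot be told apart. The replicate numbers come from a day 1 and a day 2 in the labels. The column names mark replicate 1 of compounds 4 and 5 as merged from 2 S numbers, whose meaning is not stated. One cell line was used, and since nothing states that the samples were separate cultures, p-values measure the spread between these samples only, which may be technical.

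The compounds are phenolic antioxidants of plastics, each made of a pair of phenol rings joined by a bridge. Compound 4 carries a tert-butyl and a methyl group on each ring, compound 6 has cyclohexyl in place of the tert-butyl group, and compound 5 has tert-butyl in place of the ring methyl and an additional methyl on the bridge.

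Cells that copy their DNA need a balanced supply of the deoxynucleoside triphosphates. Ribonucleotide reductase makes deoxynucleotides from ribonucleotides, thymidylate synthase and thymidine kinase provide thymidylate by synthesis and by salvage, and the pyrimidine ring itself is built by CAD and UMPS. Transcripts of RRM2, TYMS, and TK1 are known to be most abundant in cells that replicate DNA, and RRM2 and TYMS are targets of anticancer drugs. In RNA from a whole culture, fewer cells of a cell cycle stage and less RNA per cell cannot be told apart.

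Because transcription of replication genes is known to involve E2F factors and CCAAT-binding factors, the promoter windows of the 9 genes were searched for their motifs. The windows run from 250 bases before to 50 bases after each start, and RefSeq lists 14 of them for the 9 genes (GRCh38.p14). Each stretch below lies before 1 listed start and is printed 5′ to 3′ on the strand of the gene, with E2F and CCAAT matches on either strand in capitals. They span 150 bases for RRM1 and CAD and 30 bases around a match for the others. The RefSeq start used is not the outermost start that GENCODE lists, so that the stretches of RRM2, TYMS, TK1, DTYMK, and DUT lie within the GENCODE bounds of their gene (all but the first base for TYMS), and that of UMPS in part, where transcripts from other starts can include them.
RRM1 (chr11:4094535-4094684, plus strand): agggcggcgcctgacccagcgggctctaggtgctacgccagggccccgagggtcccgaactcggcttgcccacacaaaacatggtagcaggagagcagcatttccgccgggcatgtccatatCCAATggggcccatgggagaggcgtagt
RRM2 (chr2:10122660-10122689, plus strand): cggggcaccaaagCCAATgggaagggccgg
TYMS (chr18:657603-657632, plus strand): gcgggacggccgCGGGAAAaggcgcgcgga
TK1 (chr17:78187082-78187111, minus strand): gggccggctcgtgATTGGccagcacgccgt
DTYMK (chr2:241686864-241686893, minus strand): tttggccgaggcCGGGAAAtactagctaat
DUT (chr15:48332151-48332180, plus strand): gctggCGGGAAAtttcggtTTTGGCGcgct
UMPS (chr3:124730346-124730375, plus strand): ggtgcagcaagcCGGGAAAgctgcagacga
CAD (chr2:27217219-27217368, plus strand): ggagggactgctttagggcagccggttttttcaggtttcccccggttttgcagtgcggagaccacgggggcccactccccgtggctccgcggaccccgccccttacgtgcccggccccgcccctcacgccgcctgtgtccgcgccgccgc

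The E2F search used the letters TTTGGCG, the variant TTTCCCG, the variant TTTCGCG, and the variant TTTGCCG on both strands and matched windows of TYMS, DTYMK, DUT, DCK, and UMPS, 5 of the 9 genes, against 10.4% of 27305 genes with a window of this length. The CCAAT box (CCAAT, both strands) was matched for 5 of 9 genes (RRM1, RRM2, TK1, DTYMK, and CAD) and for 39.7% of all genes. RRM2 held 3 CCAAT matches before one of its starts, of which the one nearest to the start is in the stretch above, and TK1 held 2. The cell cycle element CHR (TTTGAA and TTCGAA) was matched for 4 of 9 genes against 19.5% of all genes, and the Sp1 box (GGGCGG) for 7 of 9 against 48.3%. No match of 1 motif overlapped a match of another, although windows of different starts of RRM2, of TK1, and of DUT overlap, so that a match can be found in more than 1 window. A match is a description of the letters, and the genes with and without an E2F match both include members that changed and members that did not.

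In DMSO, TK1 had the highest level of the 9 genes per length, with 215 ± 4.66 TPM (mean ± SD, n = 2), a level relative to all genes computed from the counts and the median transcript length of each gene. TYMS followed with 161 ± 7.99 TPM, then DUT (118 ± 0.334) and RRM2 (113 ± 6.39). The lower DUT sample was just above the higher RRM2 sample (117.9 against 117.3 TPM). DTYMK (96.5 ± 8.44) and RRM1 (83.8 ± 3.35) came next in TPM. UMPS (34.6 ± 1.07), CAD (23.1 ± 2.72), and DCK (12.8 ± 0.731) were the lowest 3 in TPM. With each compound, TK1 was still the highest of the 9 by mean, at 98.9 ± 6.41, 118 ± 13.6, and 121 ± 38.3 TPM with compounds 4, 5, and 6, and DCK was still the lowest. With compound 4, TK1 and TYMS (97.5 ± 6.34 TPM) lay within the spread of their replicates.

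The question put to each compound was which of the 9 transcripts differed from the solvent. Values below are CPM, the counts of a gene relative to the TMM-scaled library total, differences are log2 fold changes (log2FC) of the edgeR quasi-likelihood model fitted to all genes, and a gene was called where its p, adjusted by Benjamini-Hochberg, was under 0.05. With compound 4, 5 of the 9 genes were lower (RRM1, RRM2, TYMS, TK1, and DUT), whereas 5.42% of all genes tested were called lower. With compound 5, 7 of 9 were lower, the same 5 plus DTYMK and UMPS, against 14.2% of all genes. With compound 6, 3 of 9 were lower (RRM2, TYMS, and TK1), against 1.6% of all genes. These 3 genes were called lower with each compound, as were 1.31% of all genes tested, and the 3 comparisons share the same DMSO samples. None of the 9 was called higher in edgeR with any compound (6.5%, 13.9%, and 2.8% of all genes were), and none was higher at an unadjusted p under 0.05. Of the 9, 7 (all but DCK and CAD) had an unadjusted p under 0.05 with every compound, against 27%, 41.5%, and 20% of all genes with compounds 4, 5, and 6. DESeq2 called 5, 7, and 5 members lower with compounds 4, 5, and 6, against 5.31%, 10.4%, and 2.34% of all genes with an adjusted p.

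Compound 4 had a median log2FC over the 9 genes of −0.65, compound 5 one of −0.60, and compound 6 one of −0.57. When 1 library was left out, these medians ran from −0.76 to −0.39, −0.67 to −0.50, and −0.86 to −0.33. Over all genes tested the median was 0.00, −0.03, and 0.00. In 7 of 9 members, both compound 4 samples lay below both DMSO samples, a pattern found in 27.1% of all genes. The same held for 8 of 9 members with compound 5 (37.3% of all genes) and 7 of 9 with compound 6 (26.6%). In a test for any difference among the 4 groups, 6 of 9 members were called (RRM1, RRM2, TYMS, TK1, DUT, and UMPS), against 24.6% of all genes. Scaling by library size alone moved the median of all genes with compound 5 by −0.10 on the log2 scale relative to TMM scaling.

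With 2 samples per group, the number of calls depended on single libraries, among the 9 genes and among all genes. The fits named for compound 4 are examples, since leaving out compound 4 replicate 2 or either compound 5 sample also changed its count. For compound 4, the count of 5 became 2 without DMSO replicate 1, 2 without DMSO replicate 2, and 3 without compound 4 replicate 1, while the calls over all genes went from 1598 to 663, 335, and 1662. For compound 5, the count of 7 became 2 and 4 without DMSO replicates 1 and 2, and 0 and 4 without compound 5 replicates 1 and 2, with 1685, 2007, 1680, and 2139 calls over all genes in place of 3763. For compound 6, the count of 3 became 0 without DMSO replicate 1, DMSO replicate 2, compound 5 replicate 1, compound 5 replicate 2, or compound 6 replicate 2, where 90, 1, 350, 371, and 49 of all genes were called in place of 590. It became 5 without compound 4 replicate 1, compound 4 replicate 2, or compound 6 replicate 1, with 1090, 1096, and 1001 calls over all genes. The count of 6 for any difference became 1 without either DMSO sample and 3 and 4 without compound 5 replicates 1 and 2, with 10.8%, 11.3%, 9.42%, and 10.8% of all genes called in these 4 fits. With the replicate number as a block, compound 6 had 0 calls among the 9 genes and compound 4 had 4, and over all genes 499 and 1549 were called. RRM2 and TK1 with compound 4 stayed below 0.05 without any single library, with highest adjusted p of 0.0306 and 0.0463.

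**Figure D1:**
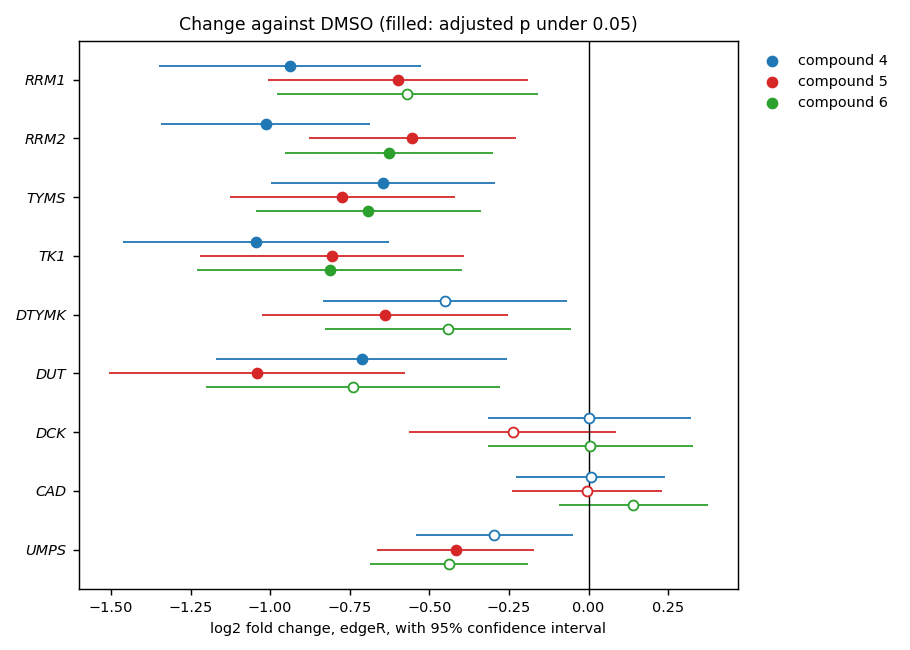
Log2 fold change of each of the 9 genes against DMSO for compounds 4 (blue), 5 (red), and 6 (green), with 95% confidence intervals of the edgeR model (2 samples per group, 8 in the fit). Filled points have an adjusted p under 0.05, and RRM2, TYMS, and TK1 are filled for every compound. DCK and CAD lie near 0, except DCK with compound 5 (−0.24, open).

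Ribonucleotide reductase is built from a large subunit, encoded by RRM1 (ENSG00000167325, chr11:4094707-4138876, plus strand), and a small subunit, encoded by RRM2 (ENSG00000171848, chr2:10120698-10131419, plus strand), whose level is known to vary with the cell cycle. RRM2 reached 209.6 and 215.7 CPM in the solvent, 96.5 and 114 CPM after compound 4, 143.8 and 146.1 CPM after compound 5, and 160.5 and 115.4 CPM after compound 6. Every treated sample lay below both DMSO samples, and the compound 4 samples were the lowest 2 of all, just under the lower compound 6 sample. RRM2 fell with compound 4 to 49.5% of its DMSO level (log2FC −1.01, SE 0.148, adjusted p = 0.00212). With compound 5 it fell to 68.2% (log2FC −0.55, SE 0.147, adjusted p = 0.0182), and with compound 6 to 64.8% (log2FC −0.63, SE 0.147, adjusted p = 0.0402, or 0.0576 when blocked by replicate number). Without either DMSO sample or either compound 5 sample, the call of RRM2 for compound 5 was lost, with adjusted p from 0.0772 to 0.112, and without compound 6 replicate 2 the log2FC for compound 6 was −0.40.

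The DMSO samples held 125.1 and 112.4 CPM of RRM1, against 68.3 and 55.8 CPM under compound 4, 74.4 and 82.3 CPM under compound 5, and 98.0 and 62.5 CPM under compound 6. No treated sample reached the DMSO samples, but the compound 6 samples differed from each other by more than either compound 4 or compound 5 samples did. RRM1 fell to 52.3% of DMSO with compound 4 (log2FC −0.94, SE 0.186, adjusted p = 0.00967) and to 66.1% with compound 5 (log2FC −0.60, SE 0.185, adjusted p = 0.0341). With compound 6 the log2FC was −0.57 (SE 0.185) and did not pass the test in edgeR (adjusted p = 0.111). DESeq2 gave 0.0432 and the fit without a filter on low counts 8.55e-04, while the log2FC stayed at −0.59 to −0.56. Without compound 6 replicate 1 it was −0.90 and called (adjusted p = 0.0124), and without replicate 2 it was −0.27. The call with compound 4 was lost without DMSO replicate 1 (adjusted p = 0.0679) or DMSO replicate 2 (0.0541), and the call with compound 5 without either DMSO or either compound 5 sample (0.0876 to 0.198). RRM2 exceeded RRM1 by 0.74 and 0.94 log2 CPM in the DMSO samples and by 0.50 to 1.03 in the treated ones, so that the difference between the subunits in treated samples spanned that in DMSO.

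**Figure D2:**
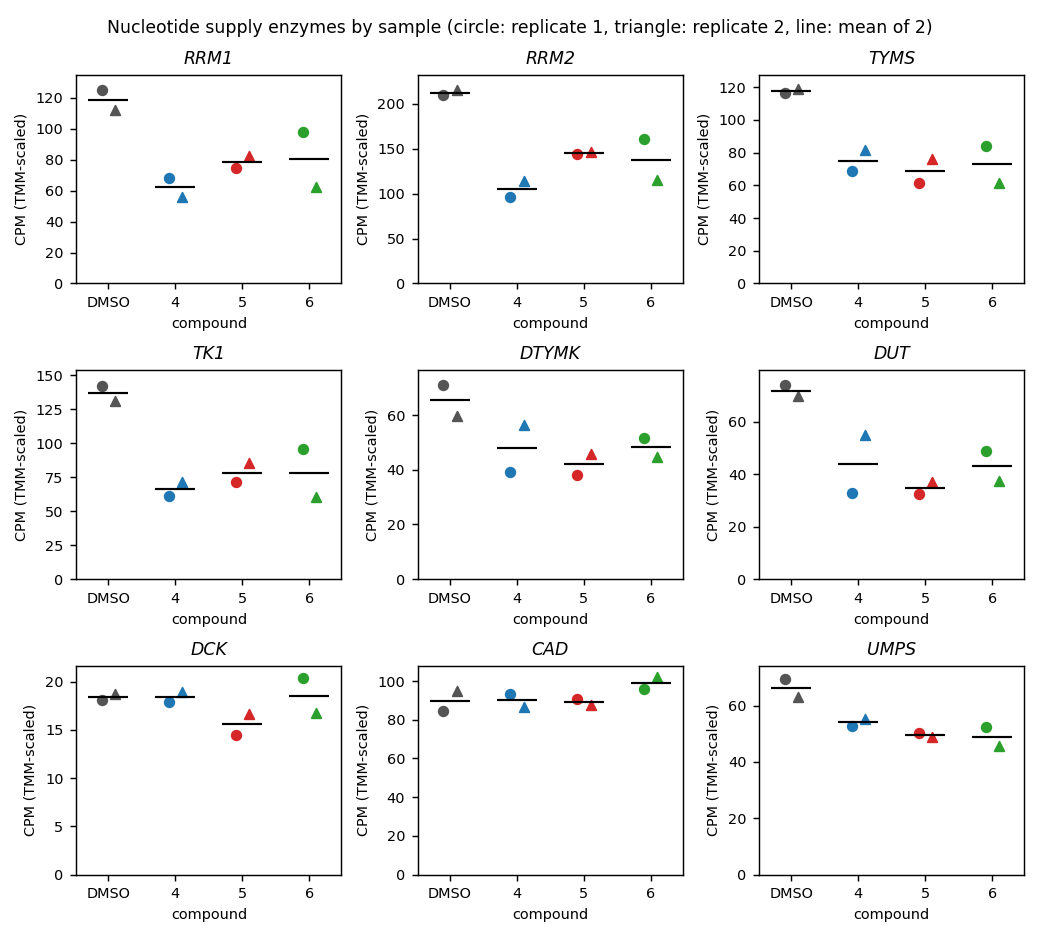
TMM-scaled CPM of each of the 9 genes in the 8 samples by group, with circles for replicate 1, triangles for replicate 2, and a line at the mean of 2. For RRM1, RRM2, TYMS, TK1, DTYMK, DUT, and UMPS every treated sample lies below both DMSO samples, whereas CAD lies between 84.5 and 102 CPM throughout.

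Thymidylate is made by TYMS (ENSG00000176890, chr18:657604-673578, plus strand), which methylates deoxyuridine monophosphate. TYMS reached 116.5 and 118.7 CPM in the solvent, 68.8 and 81.3 CPM after compound 4, 61.2 and 76.2 CPM after compound 5, and 84.2 and 61.6 CPM after compound 6. The groups with compounds overlapped each other and stayed below both DMSO samples. TYMS fell to 63.9% of DMSO with compound 4 (log2FC −0.65, SE 0.159, adjusted p = 0.0248), to 58.5% with compound 5 (−0.77, SE 0.160, adjusted p = 0.00564), and to 61.9% with compound 6 (−0.69, SE 0.160, adjusted p = 0.0381, or 0.0576 when blocked by replicate number). The call with compound 4 was lost without DMSO replicate 1, DMSO replicate 2, or compound 4 replicate 1 (adjusted p from 0.0727 to 0.149), and the call with compound 5 without compound 5 replicate 1 (0.0726). Of the 31-base words in TYMS transcripts, 42% also occur on the opposite strand of other genes, chiefly ENOSF1 (35.7%), which overlaps TYMS, so that reads of these genes could be shared if strand was not used. The library kit was a directional one, which keeps the strand, but the strand setting of the quantification is not given in the sources used here. ENOSF1 was at 21.4 to 30.7 CPM and was not called with any compound (adjusted p = 0.855, 0.187, and 0.817 with compounds 4, 5, and 6).

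Thymidine is salvaged by the cytosolic kinase TK1 (ENSG00000167900, chr17:78174075-78187233, minus strand), none of whose 31-base words occur in another gene. The DMSO samples held 142.4 and 131.2 CPM of TK1, against 60.8 and 71.8 CPM under compound 4, 71.1 and 85.1 CPM under compound 5, and 95.7 and 60.4 CPM under compound 6. The highest treated sample, compound 6 replicate 1, was still below the lower DMSO sample, while compound 6 replicate 2 was the lowest sample of all. TK1 fell to 48.5% of DMSO with compound 4 (log2FC −1.04, SE 0.189, adjusted p = 0.00638), to 57.2% with compound 5 (−0.81, SE 0.188, adjusted p = 0.00999), and to 56.9% with compound 6 (−0.81, SE 0.189, adjusted p = 0.0382, or 0.0558 when blocked by replicate number). TK1 lost its call for compound 5 without DMSO replicate 1 (adjusted p = 0.0684) or compound 5 replicate 1 (0.0995), and its log2FC for compound 6 was −0.51 without compound 6 replicate 2. Within a sample, TK1 exceeded TYMS by 0.29 and 0.14 log2 CPM in DMSO and by 0.22 and 0.16 with compound 5. It was below TYMS by 0.18 log2 CPM in each compound 4 sample, and the difference was 0.18 and −0.03 with compound 6.

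Thymidylate is then phosphorylated by the kinase encoded by DTYMK (ENSG00000168393, chr2:241675742-241686991, minus strand). DTYMK reached 71.2 and 59.8 CPM in the solvent, 39.2 and 56.3 CPM after compound 4, 37.95 and 45.9 CPM after compound 5, and 51.7 and 44.8 CPM after compound 6. The groups did not overlap with DMSO, although compound 4 replicate 2 came close to the lower DMSO sample. DTYMK fell with compound 5 to 64.2% of DMSO (log2FC −0.64, SE 0.175, adjusted p = 0.0210). The log2FC was −0.45 (SE 0.174, adjusted p = 0.122) with compound 4 and −0.44 (SE 0.175, adjusted p = 0.188) with compound 6, neither of which passed the test. Without a filter on low counts DTYMK was called with compounds 4 and 6 (adjusted p = 0.0178 and 0.0336). Over the other settings tried, its log2FC nevertheless stayed at −0.49 to −0.45 and −0.47 to −0.43. Without compound 4 replicate 2, DTYMK was called with compound 4 (−0.72, adjusted p = 0.0186), and without replicate 1 its log2FC was −0.22. The call of DTYMK for compound 5 was lost without DMSO replicate 1 (adjusted p = 0.150) or compound 5 replicate 1 (0.170).

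DUT (ENSG00000128951, chr15:48331011-48343373, plus strand) encodes the pyrophosphatase that removes deoxyuridine triphosphate and yields the substrate of TYMS. The DMSO samples held 73.7 and 69.8 CPM of DUT, against 32.7 and 54.7 CPM under compound 4, 32.5 and 37.1 CPM under compound 5, and 48.8 and 37.4 CPM under compound 6. Both compound 5 samples were low and close to each other, while the compound 4 samples lay further apart than those of any other group and spanned both compound 6 samples. DUT fell to 48.5% of DMSO with compound 5 (log2FC −1.04, SE 0.210, adjusted p = 0.00496) and to 61% with compound 4 (−0.71, SE 0.207, adjusted p = 0.0487, or 0.0602 when blocked by replicate number). With compound 6 the log2FC was −0.74 (SE 0.209) and did not pass in edgeR (adjusted p = 0.0712), while DESeq2 gave 0.0129 and the fit of DMSO and compound 6 alone 0.0117, and it was called without compound 4 replicate 1 or 2 (0.00718 and 0.00821) and without a filter on low counts (1.41e-05). Under the 9 other settings tried with no single library left out, the log2FC of DUT with compound 6 stayed at −0.77 to −0.73. Its adjusted p thus moved far more than the effect, for a reason that was not tested. The log2FC of DUT with compound 4 became −0.39 without compound 4 replicate 1 and −1.12 without replicate 2. The call with compound 4 was lost in 5 of the 8 fits without 1 library (without either DMSO sample, compound 4 replicate 1, or either compound 5 sample, with adjusted p from 0.0699 to 0.184) and in the fit of DMSO and compound 4 alone (0.0682), and the call with compound 5 without compound 5 replicate 1 (0.0557). Of the 31-base words of DUT, 11.7% occur on the opposite strand of AC023355.1, which was at 0 to 0.684 CPM.

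DCK (ENSG00000156136, chr4:70992538-71030914, plus strand) encodes deoxycytidine kinase, which salvages deoxycytidine and purine deoxynucleosides. DCK reached 18.1 and 18.7 CPM in the solvent, 17.9 and 19.0 CPM after compound 4, 14.5 and 16.6 CPM after compound 5, and 20.3 and 16.7 CPM after compound 6. The samples of compounds 4 and 6 overlapped with DMSO, and those of compound 5 lay below it. DCK had a log2FC of 0.00 for compound 4 (95% confidence interval −0.32 to 0.32, adjusted p = 0.995), −0.24 for compound 5 (−0.56 to 0.09, adjusted p = 0.245), and 0.01 for compound 6 (−0.32 to 0.33, adjusted p = 0.990). DCK was the lowest of the 9 genes in every sample, and its intervals were wider than those of CAD. Within a sample, TK1 exceeded DCK by 2.96 and 2.80 log2 CPM in DMSO and by 1.76 to 2.34 log2 CPM in the 6 treated samples, which did not overlap.

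De novo pyrimidine synthesis starts with CAD (ENSG00000084774, chr2:27217390-27243943, plus strand), a protein with several enzyme activities, and ends with UMPS (ENSG00000114491, chr3:124730366-124749273, plus strand), which makes uridine monophosphate. The DMSO samples held 84.5 and 94.9 CPM of CAD, against 93.5 and 86.8 CPM under compound 4, 91.0 and 87.8 CPM under compound 5, and 95.7 and 102 CPM under compound 6. The samples of compounds 4 and 5 lay within the DMSO range and those of compound 6 just above it. The log2FC of CAD was 0.01 for compound 4 (95% confidence interval −0.23 to 0.24, adjusted p = 0.977), −0.01 for compound 5 (−0.24 to 0.23, adjusted p = 0.977), and 0.14 for compound 6 (−0.09 to 0.38, adjusted p = 0.511).

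UMPS reached 69.5 and 63.2 CPM in the solvent, 52.7 and 55.4 CPM after compound 4, 50.3 and 48.99 CPM after compound 5, and 52.3 and 45.6 CPM after compound 6. All 6 treated samples were below both DMSO samples. UMPS fell with compound 5 to 74.9% of DMSO (log2FC −0.42, SE 0.112, adjusted p = 0.0188). With compound 6 the log2FC was −0.44 (SE 0.112, adjusted p = 0.0539) and with compound 4 −0.30 (SE 0.111, adjusted p = 0.115), neither of which passed the test. UMPS was called with compound 6 without compound 4 replicate 1, compound 4 replicate 2, or compound 6 replicate 1 (adjusted p = 0.0311, 0.0357, and 0.0443), with scaling by library size alone (0.0443), and without a filter on low counts (0.0330). The call of UMPS for compound 5 was lost without either DMSO sample or either compound 5 sample (adjusted p from 0.0610 to 0.142).

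The compounds were also compared with each other, over 3 pairs and at concentrations that differ. None of the 9 genes was called for compound 5 against 4, 5 against 6, or 4 against 6 in edgeR, against 13.9%, 9.91%, and 0.0448% of all genes, and 1, 0, and 1 members had an unadjusted p under 0.05. DESeq2 called RRM2 for compound 5 against 4 and no member in the other pairs, where it called 15%, 9.57%, and 0.537% of all genes for the 3 pairs in the same order. RRM2 differed by 0.46 on the log2 scale between compounds 5 and 4 (95% confidence interval 0.13 to 0.79, adjusted p = 0.0609, and 0.0173 in DESeq2), and the compound 5 samples, at 143.8 and 146.1 CPM, were above both compound 4 samples. Between compounds 4 and 6 the log2 difference of RRM2 was −0.39 (−0.72 to −0.06, adjusted p = 0.459), and between 5 and 6 it was 0.07 (−0.25 to 0.40, adjusted p = 0.794).

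For the tert-butyl and cyclohexyl compounds 4 and 6, which differ in a ring substituent, TYMS differed by 0.05 (compound 4 minus compound 6, interval −0.31 to 0.40) and DUT by 0.03 (−0.44 to 0.49) on the log2 scale. DUT differed by −0.33 (−0.80 to 0.14) between compounds 5 and 4 and by −0.30 (−0.77 to 0.17) between 5 and 6. Single libraries changed calls here too, since DUT was called for compound 5 against 4 without compound 4 replicate 1 (log2 difference −0.65, adjusted p = 0.0161), and RRM2 without compound 6 replicate 1 or 2 (adjusted p = 0.0240 and 0.0238). The order of the compounds by mean level was thus not the same for each gene, with compound 4 lowest for RRM1, RRM2, and TK1 and compound 5 lowest of the 3 for TYMS, DTYMK, DUT, DCK, and CAD. None of these orders passed the test in edgeR.

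**Figure D3:**
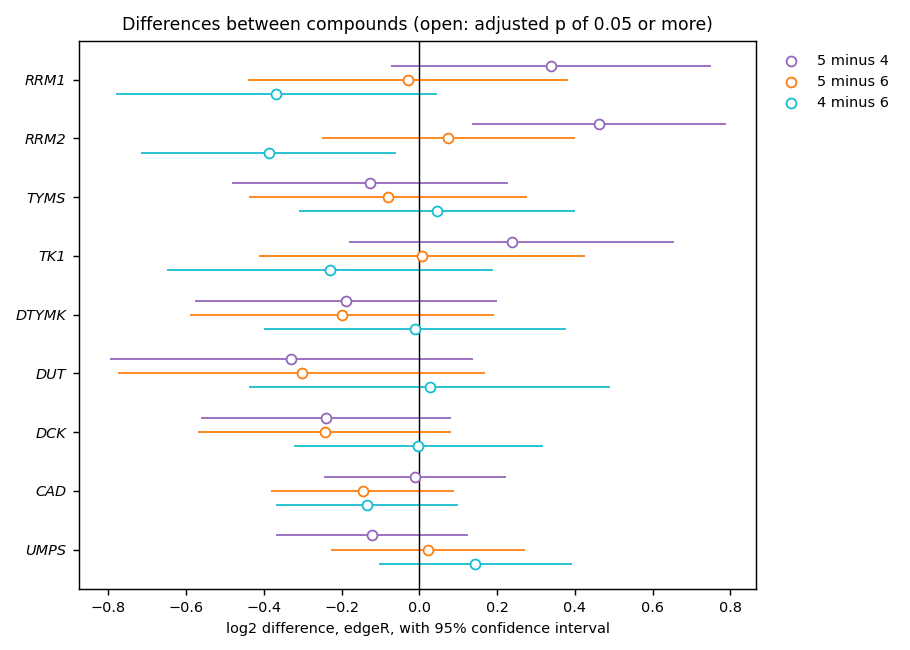
Log2 differences between compounds for each of the 9 genes, with 95% confidence intervals of the edgeR model (2 samples per compound, 8 in the fit). All points are open (adjusted p of 0.05 or more), and only the intervals of RRM2 for 5 minus 4 and 4 minus 6 leave out 0.

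The replicates of a group differed in how far the 9 genes lay from DMSO. The median log2 difference of the members from the DMSO mean was −0.77 and −0.39 in compound 4 replicates 1 and 2, −0.67 and −0.53 in compound 5, and −0.34 and −0.88 in compound 6. Compound 6 replicate 2 thus had the lowest median and compound 6 replicate 1 the highest of the treated samples. In compound 4 replicate 2, transcripts of over 6000 bases were lower than in replicate 1 (median log2 difference −0.38, 947 genes) and those under 1500 bases higher (0.17, 2208 genes), and DUT, DTYMK, TYMS, and TK1, with median transcript lengths of 1105 to 1327 bases, were each higher in replicate 2. RRM2, UMPS, and DCK, with lengths of 2614 to 3483 bases, were also higher in replicate 2, whereas RRM1 and CAD were lower. With compound 5, genes under 1500 bases lay at −0.14 and −0.10 against DMSO, and genes over 6000 bases at 0.28 and 0.16. The part of transcript length in the differences of the members was not tested.

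Totals were 9472261 to 13308975 counts per sample, so that 3 counts correspond to 0.225 to 0.317 CPM, far below all 9 genes. Mitochondrial genes took 4.91% and 5.12% of counts in DMSO and 5.31% to 6.22% in treated samples, and the 10 most abundant genes 9.34% and 9.40% in DMSO and 9.77% to 10.55% in treated samples, so that both shares were higher in every treated sample, and their part in the changes of the 9 genes was not tested. CYP3A4 was at 170.5 to 420.9 CPM in all 8 samples and rose with compound 5 (log2FC 0.97, adjusted p = 7.24e-04), with 0.31 (0.162) and −0.25 (0.344) for compounds 4 and 6. Of the marker lists, all 9 hepatocyte genes were detected (sums of 30902 to 41353 CPM, lower in every treated sample than in DMSO, of which ALB was the largest part), and the endothelial sums were at most 2.06 CPM, with KDR and EMCN at 0. The hepatocyte genes did not move together, as APOA1 and TF were called lower with each compound and AFP with compounds 4 and 5, TTR was called higher with compound 4 (log2FC 0.66, adjusted p = 0.0365), and ALB, APOB, SERPINA1, FGB, and HNF4A were not called. The 5 immune genes summed to 2411 and 3031 CPM in DMSO and to 1890 to 2696 CPM in treated samples, nearly all of it LYZ (1854 to 2993 CPM), with PTPRC and CD3E at 0 in every sample. CD68 (27.2 to 57.7 CPM) was called higher with compound 4 (log2FC 0.80, adjusted p = 0.00790), CD14 (at most 1.25 CPM) with compounds 4 and 6 (2.94 and 2.75, adjusted p = 0.0162 and 0.0477), and LYZ lower with compound 5 (−0.47, adjusted p = 0.0315). The 5 fibroblast genes summed to 1.64 and 2.66 CPM in DMSO and to 2.67 to 8.72 CPM in treated samples, with DCN and LUM at 0 in every sample and PDGFRB called higher with compound 4 (1.80, adjusted p = 0.00864). The part of these immune and fibroblast genes and of the lower hepatocyte sums in the changes of the 9 genes was not tested.

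Other genes of nucleotide metabolism did not move in one direction. Of 57 related genes tested in 5 lists, 12, 21, and 4 were called with compounds 4, 5, and 6, against 11.9%, 28.1%, and 4.4% of all genes in either direction. Among 15 other deoxynucleotide enzymes compound 4 gave 1 higher and 1 lower call, compound 5 gave 1 and 3, and compound 6 gave 1 and 0, with list medians of 0.00, −0.08, and −0.03. The gene called higher was TXNRD1, a thioredoxin reductase that helps to keep ribonucleotide reductase reduced, with log2FC of 0.75, 1.48, and 0.76 with compounds 4, 5, and 6 (adjusted p = 0.00691, 1.10e-04, and 0.0161). SAMHD1, which degrades deoxynucleoside triphosphates, fell with compounds 4 and 5 (−0.40 and −0.41, adjusted p = 0.0389 and 0.0194) and was at −0.35 with compound 6 (adjusted p = 0.101). The pool-cleaning hydrolases NUDT1 (−0.75, adjusted p = 0.00963) and DCTPP1 (−0.66, adjusted p = 0.00440) fell with compound 5.

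Among the folate enzymes around TYMS, the serine hydroxymethyltransferases moved in opposite directions, as the mitochondrial SHMT2 rose with each compound (log2FC 0.50, 0.77, and 0.58, adjusted p = 0.0205, 0.00124, and 0.0249 for compounds 4, 5, and 6) and the cytosolic SHMT1 fell with compounds 4 and 5 (−0.46 and −0.82, adjusted p = 0.0434 and 0.00157). The mitochondrial folate enzyme MTHFD2 rose with compounds 5 and 6 (1.44 and 0.93, adjusted p = 3.59e-04 and 0.0166) and was at 0.52 with compound 4 (adjusted p = 0.0745).

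The 14 other pyrimidine genes tested gave 4 higher and 1 lower calls for compound 4, 3 and 2 for compound 5, and none for compound 6 in edgeR. For this list and the purine lists below, the shares over all genes were 6.5%, 13.9%, and 2.8% higher with compounds 4, 5, and 6. Those called lower were 5.42%, 14.2%, and 1.6% of all genes. UPP1, which cleaves uridine, rose with compounds 4 and 5 (log2FC 1.29 and 1.41, adjusted p = 0.0117 and 0.00372), as did the cytidine deaminase CDA (0.88 and 1.49, adjusted p = 0.0275 and 9.22e-04) and the uridine kinase-like UCKL1 (0.35 and 0.42, adjusted p = 0.0446 and 0.0114). The nucleoside transporter SLC29A2 fell with compound 5 (−1.27, adjusted p = 0.0492). Of 13 genes of purine synthesis, 1 was called lower for compound 4, while compound 5 gave 2 higher and 3 lower calls and compound 6 none. PRPS2, which makes the activated ribose of nucleotides, fell with compounds 4 and 5 (−0.50 and −0.74, adjusted p = 0.0343 and 0.00310). ADSS1 (−1.09, adjusted p = 0.00490) and PAICS (−0.34, adjusted p = 0.0357) fell and IMPDH1 (0.33, adjusted p = 0.0459) rose with compound 5. Of 6 purine salvage genes, HPRT1 was the only one called, lower with compound 5 (−0.39, adjusted p = 0.0307).

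The lists closest in direction to the 9 genes were those of DNA replication, which share no member with them. All 6 MCM helicase genes were called lower with compounds 4 and 5 and 2 of 6 with compound 6, with medians of −0.63, −0.77, and −0.53 against −0.65, −0.60, and −0.57 for the 9 genes. Of 9 subunits of replicative polymerases, 5, 7, and 0 were called lower, against 5.42%, 14.2%, and 1.6% of all genes. Of 8 E2F and RB family genes, 4, 5, and 1 were called lower, among them E2F7, an inhibitory E2F factor, with log2FC of −1.55, −1.41, and −1.01 (adjusted p = 0.00290, 0.00208, and 0.0382).

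Profiles over the 8 samples were compared by the root mean square difference of log2 CPM, each gene centred on its own mean, among 12684 genes that averaged 1 CPM or more. The genes most like the mean profile of the 9 members were POLE3 (0.0451), ARL6IP1 (0.0459), MCM7 (0.0562), EIF1AX (0.0614), and AFP (0.0629). These 5 were picked as the smallest differences, which largely fixes that they lie closer to this mean profile than the members. The differences of the members from their mean profile ran from 0.111 for TYMS to 0.298 for CAD. POLE3, for example, was at 66.2 and 67.9 CPM in DMSO and at 42.4 to 56.1 CPM in the treated samples. Genes most like RRM2 were APOA4 (0.0552), RACGAP1 (0.0699), and PLK1 (0.0786).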

How the data were processed

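RNA-seq of 8 samples in 4 groups of 2 was analysed, with groups and replicate numbers from the sample labels. The authors mapped reads to the GENCODE transcriptome with Salmon (version 1.5.0 in the submitters' processing notes, which also name FastQC 0.12.0 and DESeq2 1.38.3) and summed them to genes. The deposited values are estimated counts per gene, given as whole numbers, with no library scaling. Totals ranged from 9472261 to 13308975 per sample. Symbols were found for 60089 of 60230 Ensembl identifiers, and gene coordinates and lengths are from GENCODE 29 on GRCh38.

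The tools were edgeR 4.0.16, limma 3.58.1, and DESeq2 1.42.0 under R 4.3.3. Genes were kept by filterByExpr and scaled by TMM (factors 0.958 to 1.04). A quasi-likelihood model of the 4 groups was fitted to all 8 samples (4 residual degrees of freedom). It pools the spread within the 4 groups and draws the spread of each gene toward a trend over all genes. Benjamini-Hochberg adjustment ran over all 13404 genes at a cutoff of 0.05. The procedure was tested on simulated data. The members and lists were chosen with earlier results of these data known.

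Besides the 9 members, at most 4 genes per list were named, those called with the most compounds, then by mean log2 fold change, and the nearest profiles (5 to the members' mean, 3 to RRM2). A related gene that this rule chose, and the counts of its list, are not reported here. Other library scalings, filters, DESeq2, the compared groups alone, a cutoff of 0.01, the replicate block, and leaving out each library were tried, and the test for any difference was added after values had been seen. The labels' day served as the block. Deviations of samples with the same number correlated at −0.08 to 0.16 over genes. Replicates of a group differed by more than sampling noise (chi-square per degree of freedom 5.83 to 18.4).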

Additional observations from a re-analysis of the deposited data

How the results depend on the processing

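Among the 9 genes, each log2 fold change past the threshold against DMSO kept its sign under every alternative tried, and RRM2 and TK1 with compound 4 also kept their calls. With the replicate block, the called members were 0 with compound 6, and the block changed no call among the 9 genes other than DUT with compound 4 and RRM2, TYMS, and TK1 with compound 6. DESeq2 called 5 members and 764 of all genes with compound 6, 1 member and 1662 genes for compound 5 against 4, and 72 of all genes for 4 against 6. Without a filter on low counts, 7 members and 1441 of all genes were called with compound 6, 2 members and 2812 genes for 5 against 4, 2117 genes for 5 against 6, and 294 for 4 against 6. For RRM1, DTYMK, DUT, and UMPS with compound 6, this fit gave lower adjusted p at nearly the same log2FC. These adjusted p are not taken as stronger evidence. A minimum of 10 counts in every sample gave 1 member and 2034 genes for 5 against 4. Fitting only the groups compared lost DUT with compound 4, called DUT with compound 6, and gave 6 related nucleotide genes with compound 4, 897 of all genes for 5 against 4, and 2 for 4 against 6. The test for any difference was not run in that way. At a cutoff of 0.01, compounds 4, 5, and 6 had 3, 3, and 0 called members, 591, 1809, and 92 of all genes, and 1, 12, and 0 related genes, the pairs 5 against 4, 5 against 6, and 4 against 6 had 279, 282, and 1 genes, and 2 members and 8.8% of all genes showed any difference.

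Differences near 0 that were not called changed sign. DCK with compound 4 was at −0.0018 under RLE scaling and in DESeq2, −0.017 under upper-quartile scaling, and −0.038 by library size alone, where DCK with compound 6 was at −0.022. CAD with compound 4 was at −0.013 under upper-quartile scaling and −0.033 by library size alone, and RRM2 for 5 against 6 at −0.0077 and −0.0048. CAD with compound 5 was at 0.017 under RLE scaling and in DESeq2, 0.023 without a filter, 0.0019 with the 10-count minimum, and 0.015 with only the groups compared.

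Leaving out 1 library at a time gave 2 to 6, 0 to 7, and 0 to 5 called members with compounds 4, 5, and 6, and 0 to 1, 0 to 0, and 0 to 0 for 5 against 4, 5 against 6, and 4 against 6. The medians of the 9 genes ran from −0.76 to −0.39, −0.67 to −0.50, and −0.86 to −0.33. Of all genes, 335 to 1703, 1680 to 4519, and 1 to 1096 were called against DMSO and 111 to 2709, 143 to 1875, and 0 to 117 in the pairs, and of related genes 0 to 13, 12 to 24, and 0 to 6. Any difference was called for 1 to 7 members and 9.42% to 35.8% of all genes. Sign changes occurred for DCK with compounds 4 (−0.027 to 0.043) and 6 (−0.11 to 0.15), CAD with compounds 4 (−0.074 to 0.094) and 5 (−0.086 to 0.11), RRM2 for 5 against 6 (−0.13 to 0.33), DUT for 5 against 4 (−0.65 to 0.10) and 4 against 6 (−0.40 to 0.35), and TYMS for 4 against 6 (−0.17 to 0.27). A sample left alone in its group is assumed to vary like the other groups. The causes of these shifts were not tested. All 9 genes lay far above the depth limit of 3 counts, and counting error weighs most on DCK, which had 158 to 243 counts per sample.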
